A study of Mus musculus with 24 samples.

Results

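The change of the diphtheria toxin (DT) response between 24 and 48 h was measured in mouse intestinal tumours as a difference of differences, the DT effect at 48 h minus the DT effect at 24 h, where each effect is DT minus saline at the same time. It uses 16 of the 24 libraries of the series, 4 in each of 4 groups (saline 24 h, DT 24 h, saline 48 h and DT 48 h), and 17468 genes that passed a filter on low counts. All 4 groups share the genotype recorded as AKVPL, a small intestine source, EpCAM in the sample names and a sort recorded as bulk; the toxin was given to deplete Lgr5+ cells. The labels do not spell out AKVPL, do not say which construct or promoter makes Lgr5+ cells sensitive to the toxin, and give no age, number of animals or pooling. Whether a group's libraries were taken from different animals is not stated, and the spread behind each p-value may therefore be only technical.

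DT enters cells through a surface receptor and stops protein synthesis by inactivating an elongation factor; Lgr5, a receptor for R-spondins, marks crypt base stem cells and is itself a target of Wnt signalling. Type I interferon acts through transcription factors that bind a short element in the promoters of antiviral genes. Many genes of the later cell cycle carry CCAAT boxes and a cell cycle homology region in their promoters.

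By 48 h, the 578 genes raised at least 2-fold at 24 h kept 0.284 to 0.385 of that effect in the 4 DT libraries. The 487 genes lowered at least 2-fold kept 0.689 to 0.772 in 3 of them and 0.310 in the other. These shares are slopes that depend on a prior count, and choosing genes by a large 24 h effect itself favours small shares. Interferon response genes such as Isg15, Irf7 and Oas3 were 3.68-fold, 6.01-fold and 14.7-fold higher after DT at 24 h and differed from saline by less than could be called at 48 h. Of 25 G2/M genes, all higher at 24 h, 23 were still called higher at 48 h and 21 had a called fall in effect. Of 30 S phase genes, 29 were higher at 24 h, 15 at 48 h and 16 had a called fall. Among all genes tested 19.9% were called higher at 24 h and 2.34% had a called lower change. When 1 library was left out, the 21 ran from 15 to 23, the 15 from 6 to 22 and the 16 from 6 to 21. The mitotic cyclin Ccnb2 and the replication factor Mcm10 both fell back and stayed above saline. Of the 3296 genes that DT lowered at 24 h, 1028 (31.2%) were still called lower at 48 h, among them the Wnt antagonists Notum and Wif1 and the early response factors Fos and Atf3; of the 3469 raised, 774 (22.3%) were still called higher. Without the library labelled DT 48 h replicate 3 these shares were 34.4% of 3589 lowered and 34.0% of 3357 raised genes, so the lead of lowered genes in this count rests on that library. Of all genes tested 6.50% were called lower and 4.83% higher at 48 h, and 7.73% and 7.72% without it. Lgr5 itself was lower at both times, by less at 48 h.

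Total counts per library ran from 10.9 to 27.7, in units of 1000000 reads. The first principal component of the 16 libraries held 35.4% of the variance; the DT libraries of 24 h lay at 35.3 to 49.99 on it, the saline libraries of both times at -32.6 to -19.7, and DT libraries 1, 2 and 4 of 48 h at 16.6 to 29.1. The library labelled DT 48 h replicate 3 lay apart from these at -4.56, so results that rest on it are given with and without it. The epithelial marker Epcam had means of 1323 to 1587 counts per 1000000 (CPM) in the 4 groups. It was itself called lower after DT at 24 h by edgeR, at -0.31 to -0.23 (log2) over the fits that left out 1 library. A change of the DT effect was called in 0 of 63 tested markers of fibroblasts, endothelium, leukocytes and other non-epithelial cells. This held for edgeR, DESeq2 and limma voom, where edgeR called 2.89% of all genes tested. Of the 63 markers, 3 had an unadjusted edgeR p under 0.05. The 95% interval of the change lay within -0.5 and 0.5 (log2) for 1 of 2 B and plasma cell markers. It did so for 0 markers in every other list of these cells. The intervals were thus too wide for the count of 0 to show that these markers stayed the same. The 12 macrophage and monocyte markers did move together, as given beside the interferon genes. Effects at 48 h were above 0 in all 7 smooth muscle and pericyte, all 8 endothelial and 11 of 12 fibroblast markers. The change was below 0 in 2, 7 and 5 of these. The summed 12 fibroblast markers stood at 8969 to 21956 CPM and the summed 13 tested epithelial identity genes at 9526 to 11495 CPM. After DT at 24 h these sums overlapped (8969 to 14527 and 9848 to 11495 CPM), and in the other groups the fibroblast sum was higher. Sums over different genes do not give shares of cells. Cd3g, Nkg7 and Ncr1, markers of T and NK cells, had 0 counts in all 16 libraries.

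Lgr5 was examined first, since its cells are the target. Its CPM were 179, 209, 194 and 217 in the saline libraries of 24 h and 84.1, 84.9, 77.0 and 79.6 after DT. At 48 h they were 198, 185, 164 and 182 in saline and 95.4, 117, 171 and 98.7 after DT. The groups did not overlap at 24 h, and at 48 h only the library labelled DT replicate 3, at 171 CPM, lay within the saline range, so this gene does not bear out its label. The log2 effect was -1.30 ± 0.12 (SE) at 24 h and -0.60 ± 0.12 at 48 h, and the change between them was 0.70 ± 0.17 (edgeR quasi-likelihood test, adjusted p = 0.0273). Without the library labelled replicate 3 the 48 h effect was -0.80 and the change 0.51 (edgeR adjusted p = 0.0205). The change of Lgr5 was no longer called by edgeR without any one of saline 24 h replicates 2 and 4, DT 24 h replicate 3 or saline 48 h replicate 3, with an adjusted p of 0.00899 to 0.0711 over the 16 fits that left out 1 library. In RNA pooled from many sorted cells, fewer cells of a type and less RNA per cell cannot be told apart.

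Across all genes tested, 6765 (38.7%) had a called DT effect at 24 h (3469 higher, 3296 lower) and 1979 (11.3%) at 48 h (844 higher, 1135 lower), by edgeR at an adjusted p of 0.05. The effect itself changed between the times in 505 genes (2.89%): it was lower at 48 h than at 24 h in 408 (2.34%) and higher in 97 (0.555%). Of the 408, 406 were genes that DT had raised at 24 h, and of the 97, 94 were genes that DT had lowered. A called change toward 0 was thus made in 11.7% of the genes raised at 24 h and in 2.85% of those lowered (6.79% and 2.31% without the library labelled DT 48 h replicate 3). Saline libraries of 48 and 24 h differed in 62 genes (0.355%) and DT libraries in 3323 (19.0%). Among the 408 genes the DT libraries had moved in 400 and the saline libraries in 1, and among the 97 in 90 and 2. A gene chosen for a large effect at 24 h tends to measure smaller at 48 h whatever happened, and the change shares libraries with both effects, so these counts describe the table and are not a test.

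Without the library labelled DT 48 h replicate 3, 17738 genes were tested. The 24 h effect was called in 6946 of them (39.2%) and the 48 h effect in 2741 (15.5%), 1369 higher (7.72%) and 1372 lower (7.73%). The change was called in 321 (1.81%), 232 lower (1.31%) and 89 higher (0.502%). Of the 505 genes called with all libraries, 57.6% were called again, in each case with the same sign; these 291 made up 90.9% of the calls without it among genes tested in both fits. Single libraries moved these counts. The 408 became 212, 233, 247 and 252 without saline 24 h replicates 2, 1, 3 and 4, 241 without saline 48 h replicate 4 and 644 without DT 48 h replicate 1. The 97 became 45 and 56 without saline 48 h replicates 3 and 2, 52 and 60 without DT 24 h replicate 2 and saline 24 h replicate 2, and 159, 191 and 221 without DT 48 h replicate 2, DT 24 h replicate 4 and DT 48 h replicate 1.

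How much of the 24 h response each library of 48 h still carried was described by a slope through 0. It sets log2 differences from the saline mean, with a prior count of 2, against the fitted 24 h log2 fold changes. The prior count lowers these slopes, so a library with the whole response could fall below 1. Over the 578 genes raised at least 2-fold at 24 h the slopes were 0.336, 0.338, 0.284 and 0.385 in DT replicates 1 to 4. Over the 487 genes lowered at least 2-fold they were 0.738, 0.689, 0.310 and 0.772, and in the saline libraries of 48 h they stayed between -0.0592 and 0.0806 for both sets. With a prior count of 0.5 the DT slopes were 0.329 to 0.439 for raised genes. For lowered genes they were 0.758 to 0.850 in 3 DT libraries and 0.328 in the library labelled replicate 3. Both sets were chosen on the 24 h effect, which itself favours slopes under 1. By slope the library labelled replicate 3 was lowest in both sets, and far from the others only for lowered genes. Without that library the share of all raised genes still called at 48 h went from 22.3% to 34.0%. The share of lowered genes went from 31.2% to 34.4%. The fitted fold changes gave 0.396 for raised and 0.628 for lowered genes, and 0.419 and 0.809 without that library.

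**Figure D1:**
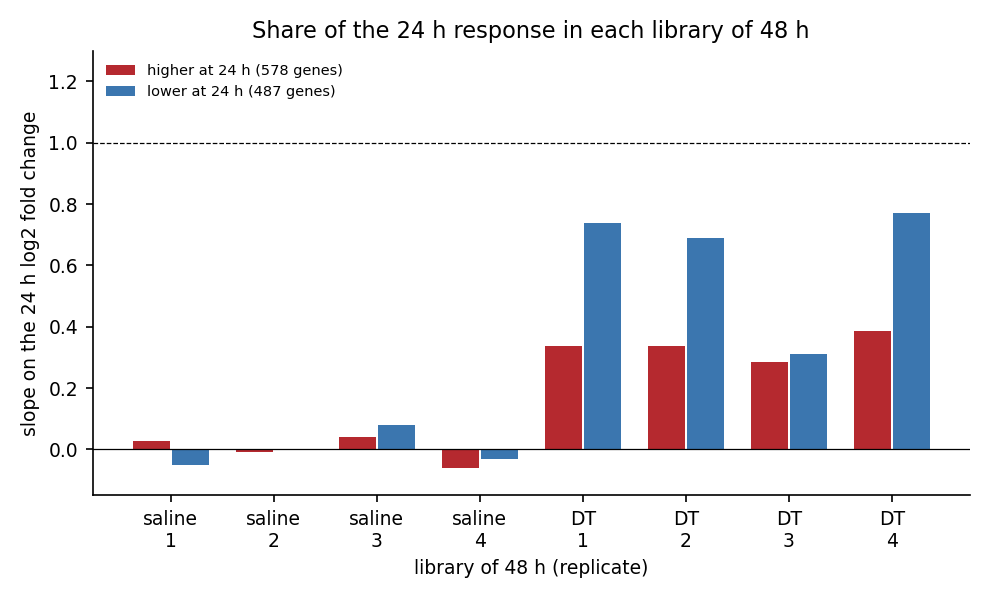
Slope of each 48 h library on the 24 h log2 fold changes (y axis), with a prior count of 2 and a dashed line at 1. The x axis gives the 4 saline and 4 DT libraries. Genes were raised (red, 578) or lowered (blue, 487) at least 2-fold by DT at 24 h. Slopes for lowered genes were 0.689 to 0.772 in 3 DT libraries and 0.310 in the library labelled replicate 3. Those for raised genes were 0.284 to 0.385 in all 4.

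Genes with a called 24 h effect of at least 2-fold were sorted by their course. A response was taken as shut off where the change was called and the 95% interval of the 48 h effect lay within -0.5 and 0.5 on the log2 scale, as shrunken where the change was called and the interval was not so near 0, and as kept where the change was not called and its own 95% interval lay within the same bounds. Of the 578 raised genes 30 (5.19%) were shut off, 158 shrank and 0 were kept; 89 of the 158 were still called higher at 48 h, and the median log2 effect of the 158 went from 1.35 to 0.43. The other 390 raised genes (67.5%) could be put in none of these, 112 of them still called higher (median 1.32, then 0.61). Of the 487 lowered genes 0 were shut off, 21 shrank and 1 was kept, while 465 (95.5%) were likewise undetermined, 284 of them still called lower at 48 h (median -1.43, then -0.90). Without the library labelled DT 48 h replicate 3, 15 of 596 raised genes were shut off and 121 shrank, and 13 of 525 lowered genes shrank and 16 were kept. The count of 30 was 19 without saline 48 h replicate 2 and 48 without DT 24 h replicate 4, and the 179 that shrank were 117 without saline 24 h replicate 2.

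**Figure D2:**
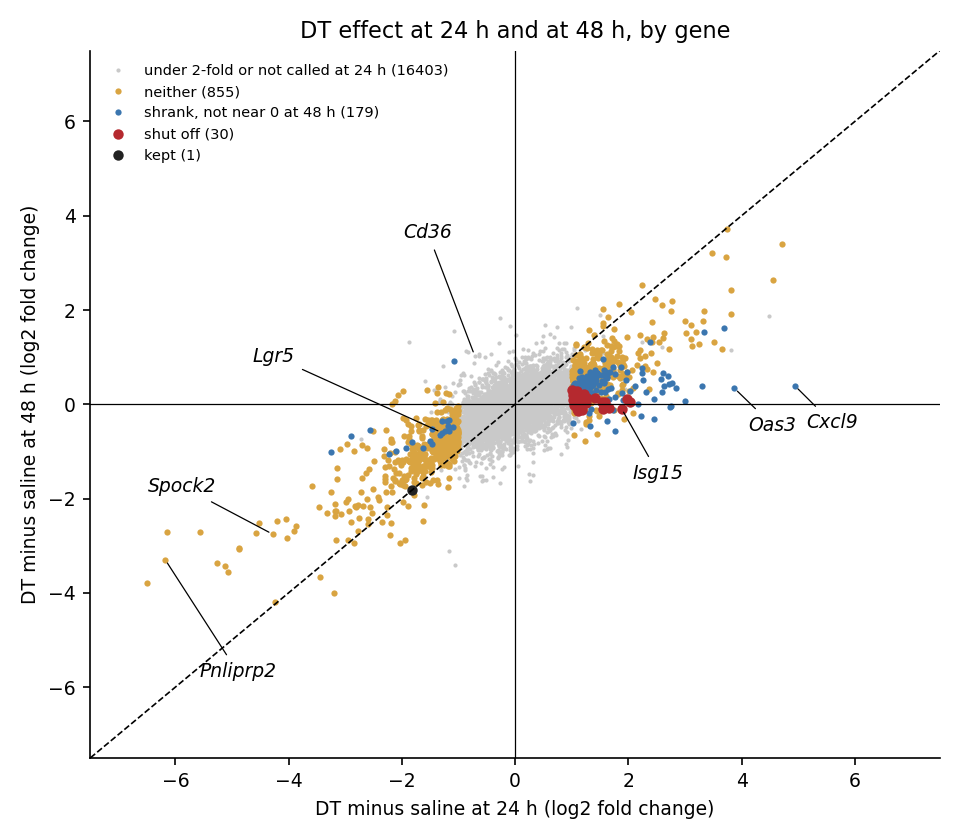
DT minus saline at 24 h (x axis) against the same at 48 h (y axis), both as log2 fold change, 1 point per gene of the 17468 tested; colours give the course of genes called and at least 2-fold at 24 h. Shut-off genes lie on the horizontal line at 0 right of the centre, and genes lowered at 24 h lie mostly between that line and the dashed line of equal effects.

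The promoters of the genes that fell back are shown for the elements named above, taken from RefSeq on GRCm38.p6. Each line gives the 100 bases just upstream of the gene's start, 5′ to 3′ on the gene's strand, with matches in capitals. For the interferon genes Isg15 (chr4:156200819-156200918, minus strand), Oas3 (chr5:120777660-120777759, minus) and Oas1a (chr5:120907526-120907625, minus) the capitals mark GAAANNGAA, the core of the interferon-stimulated response element, where several overlapping matches form 1 run. For the mitosis genes Cdk1 (chr10:69352913-69353012, minus), Ccnb2 (chr9:70421555-70421654, minus) and Top2a (chr11:99024190-99024289, minus) they mark CCAAT, also as ATTGG on the other strand, and the cell cycle homology region TTTGAA, also as TTCAAA.
Isg15: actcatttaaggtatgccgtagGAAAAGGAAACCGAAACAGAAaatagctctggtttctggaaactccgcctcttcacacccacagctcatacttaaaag
Oas3: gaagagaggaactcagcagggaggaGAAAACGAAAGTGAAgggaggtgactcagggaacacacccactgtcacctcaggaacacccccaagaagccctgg
Oas1a: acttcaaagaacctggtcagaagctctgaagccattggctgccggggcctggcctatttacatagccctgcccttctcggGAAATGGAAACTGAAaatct
Cdk1: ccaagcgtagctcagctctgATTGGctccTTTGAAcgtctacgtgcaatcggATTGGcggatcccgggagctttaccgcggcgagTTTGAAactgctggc
Ccnb2: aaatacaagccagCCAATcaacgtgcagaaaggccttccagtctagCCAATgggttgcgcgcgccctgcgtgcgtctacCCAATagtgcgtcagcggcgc
Top2a: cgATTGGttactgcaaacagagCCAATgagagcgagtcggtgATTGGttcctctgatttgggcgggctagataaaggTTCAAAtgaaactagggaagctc
Within 250 bases upstream, on either strand, GAAANNGAA was found in 12 of the 21 type I interferon response genes with a promoter in the table (57.1%) and in 7.33% of the 12606 tested genes with one. TTTGAA was found in 9 of 20 G2/M genes (45.0%) and in 13.4% of all, and CCAAT in 18 of 20 (90.0%) and in 39.5% of all. CCAAT was as frequent, in 15 of 16, in cholesterol synthesis genes, of which 0 had a change called by edgeR, 1 by DESeq2 and 2 by limma voom, with 5 at an unadjusted edgeR p under 0.05. The interferon promoters printed were chosen for their matches, and Irf7, Oasl2 and Ifi44 have none in this window. Those of the mitosis genes are likewise rich in matches: Bub1b, Nusap1 and Birc5 have none in this window, and Ccnb2 has only CCAAT. A match describes the letters and not a bound site.

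Interferon response genes had the lowest median change of the 48 gene lists, -1.75 on the log2 scale. Of 30 type I interferon response genes, 29 were called higher after DT at 24 h, against 19.9% of all genes tested, and 2 at 48 h, against 4.83%; the change was called lower in 29, against 2.34%. Their median log2 effect went from 1.64 to 0.06, where the median of all genes was 0.00 at both times. Without the library labelled DT 48 h replicate 3 the change was called in 26, and over all fits that left out 1 library in 26 to 30. At 48 h the effects ran from -0.84 (Ifit1, called lower, edgeR adjusted p = 0.0133) to 0.66 (Oasl2), 16 above 0 and 14 below, and for 13 of the 30 the 95% interval lay within -0.5 and 0.5. As a median over the 30 genes, the DT libraries of 24 h lay 1.34 to 1.94 above their saline mean on the log2 scale and those of 48 h between -0.06 and 0.29.

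Isg15 encodes a ubiquitin-like protein joined to other proteins in the interferon response. Its CPM were 15.4, 16.9, 15.2 and 11.5 in saline at 24 h and 41.6, 47.1, 59.0 and 69.2 after DT. At 48 h they were 13.7, 15.3, 13.0 and 15.2 in saline and 17.2, 13.2, 13.1 and 10.5 after DT. All DT libraries of 24 h thus stood above all others, and at 48 h the groups overlapped. The log2 effect was 1.88 ± 0.16 at 24 h and -0.09 ± 0.16 at 48 h (95% interval -0.43 to 0.25), a change of -1.97 ± 0.23 (edgeR adjusted p = 3.32e-05), and -1.93 without the library labelled DT 48 h replicate 3.

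Irf7, the factor that amplifies interferon production, was at 30.5, 22.5, 35.1 and 22.1 CPM in saline and 116, 152, 159 and 236 after DT at 24 h. The saline libraries of 48 h had 27.1, 28.7, 25.9 and 28.1 CPM and the DT libraries 37.3, 41.1, 30.5 and 23.7. The groups were apart at 24 h and overlapped at 48 h. The effect went from 2.59 ± 0.22 to 0.26 ± 0.22 on the log2 scale, a change of -2.33 ± 0.30 (edgeR adjusted p = 1.81e-04).

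Oas3 makes the oligoadenylates that switch on RNase L. It was at 1.73, 1.65, 2.96 and 2.08 CPM in saline and 21.8, 30.2, 31.8 and 40.0 after DT at 24 h. The 48 h values were 3.40, 3.34, 3.03 and 2.62 CPM in saline and 3.85, 4.21, 4.29 and 3.57 after DT. The groups did not overlap at either time, but the 48 h effect of 0.34 ± 0.24 was not called (edgeR adjusted p = 0.385), and its 95% interval of -0.15 to 0.83 is too wide to call the response shut off. The change, -3.53 ± 0.34 on the log2 scale, had the smallest p of all genes (edgeR adjusted p = 5.97e-06). Its relatives Oas1a, one of several near-identical copies that may share reads, and Oasl2 were the only 2 of the 30 interferon genes still called higher at 48 h, at 0.59 ± 0.17 and 0.66 ± 0.20. Both calls were lost without any one of saline 48 h replicates 1, 2 and 4 or DT 48 h replicates 1 and 2, and that of Oasl2 also without saline 48 h replicate 3.

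Among the other interferon genes, Mx1, an antiviral GTPase, had an effect of 1.66 at 24 h and -0.07 at 48 h, and Usp18, which removes Isg15 from proteins, of 1.10 and -0.15; both counted as shut off with and without the library labelled DT 48 h replicate 3. Bst2, which tethers budding virus, went from 2.64 to 0.40 and Ifi44 from 2.74 to -0.06, with wider 48 h intervals. The shut-off set of 30 also held the guanylate-binding protein Gbp3, the GTPases Igtp and Irgm1, the sensor Ifih1 and the helicase-like Ddx60. Outside this group it held Esco2, a cohesin acetyltransferase (1.16, then 0.18), and the ribosome factor Rrp12 (1.08, then 0.29), which was still called at 48 h within the bounds. Without the library labelled DT 48 h replicate 3, Esco2 and Rrp12 moved to the genes that shrank.

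Of 29 antigen presentation and interferon gamma response genes, 17 were called higher at 24 h, against 19.9% of all genes. At 48 h 1 was, a share near the 4.83% of all genes. The change was called lower in 7, against 2.34%. That 7 became 5 to 12 when 1 library was left out, with 12 without DT 48 h replicate 1. Without the library labelled DT 48 h replicate 3 it became 6, and 3 genes were called higher at 48 h, against 7.72% of all genes. The MHC class II genes H2-Aa and H2-Ab1 were called lower at 24 h (-1.20 and -1.26) and were at -1.25 and -1.30 at 48 h, not called. The peptide transporter Tap1 went from 1.60 to 0.25 (change -1.35 ± 0.24, edgeR adjusted p = 0.00276). B2m, the light chain of MHC class I, was the 1 gene called at 48 h with all libraries. Its means were 215 ± 15.5 CPM (SD, n = 4) in saline and 528 ± 72.7 after DT at 24 h, and 205 ± 26.1 and 311 ± 55.6 at 48 h. Its change of -0.69 ± 0.19 missed the threshold (edgeR adjusted p = 0.0553), which was passed without DT 24 h replicate 1 or DT 48 h replicate 1. Cxcl9, a chemokine for T cells, had the largest change, -4.56 ± 0.98 (edgeR adjusted p = 0.0106), at means of 0.275, 8.48, 0.531 and 0.770 CPM in saline 24 h, DT 24 h, saline 48 h and DT 48 h, and was not called without saline 48 h replicate 2 (0.0622) or by limma voom.

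Macrophages and monocytes can make interferon and respond to it. The summed level of their 12 markers was 278 to 389 CPM in saline and 168 to 499.8 after DT at 24 h, and 133 to 376 and 134 to 229 at 48 h, so the groups overlapped at both times. Ptprc, the leukocyte marker CD45, had means of 8.32, 6.90, 4.71 and 2.26 CPM in the same order. All 12 changes were below 0 (median -0.75 on the log2 scale), none of them called by edgeR, DESeq2 or limma voom (1 had an unadjusted edgeR p under 0.05). All 12 of the 48 h effects were also below 0, that of Itgam called (-0.98, edgeR adjusted p = 0.0437). In DT libraries 10 of the 12 markers were called lower at 48 h than at 24 h, against 11.7% of all genes. The median of 48 h minus 24 h was -1.53 in DT and -0.76 in saline, where 0 were called. These levels were measured in cells that had passed FACS, with EpCAM in the sample names, and their part in the interferon result was not tested.

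**Figure D3:**
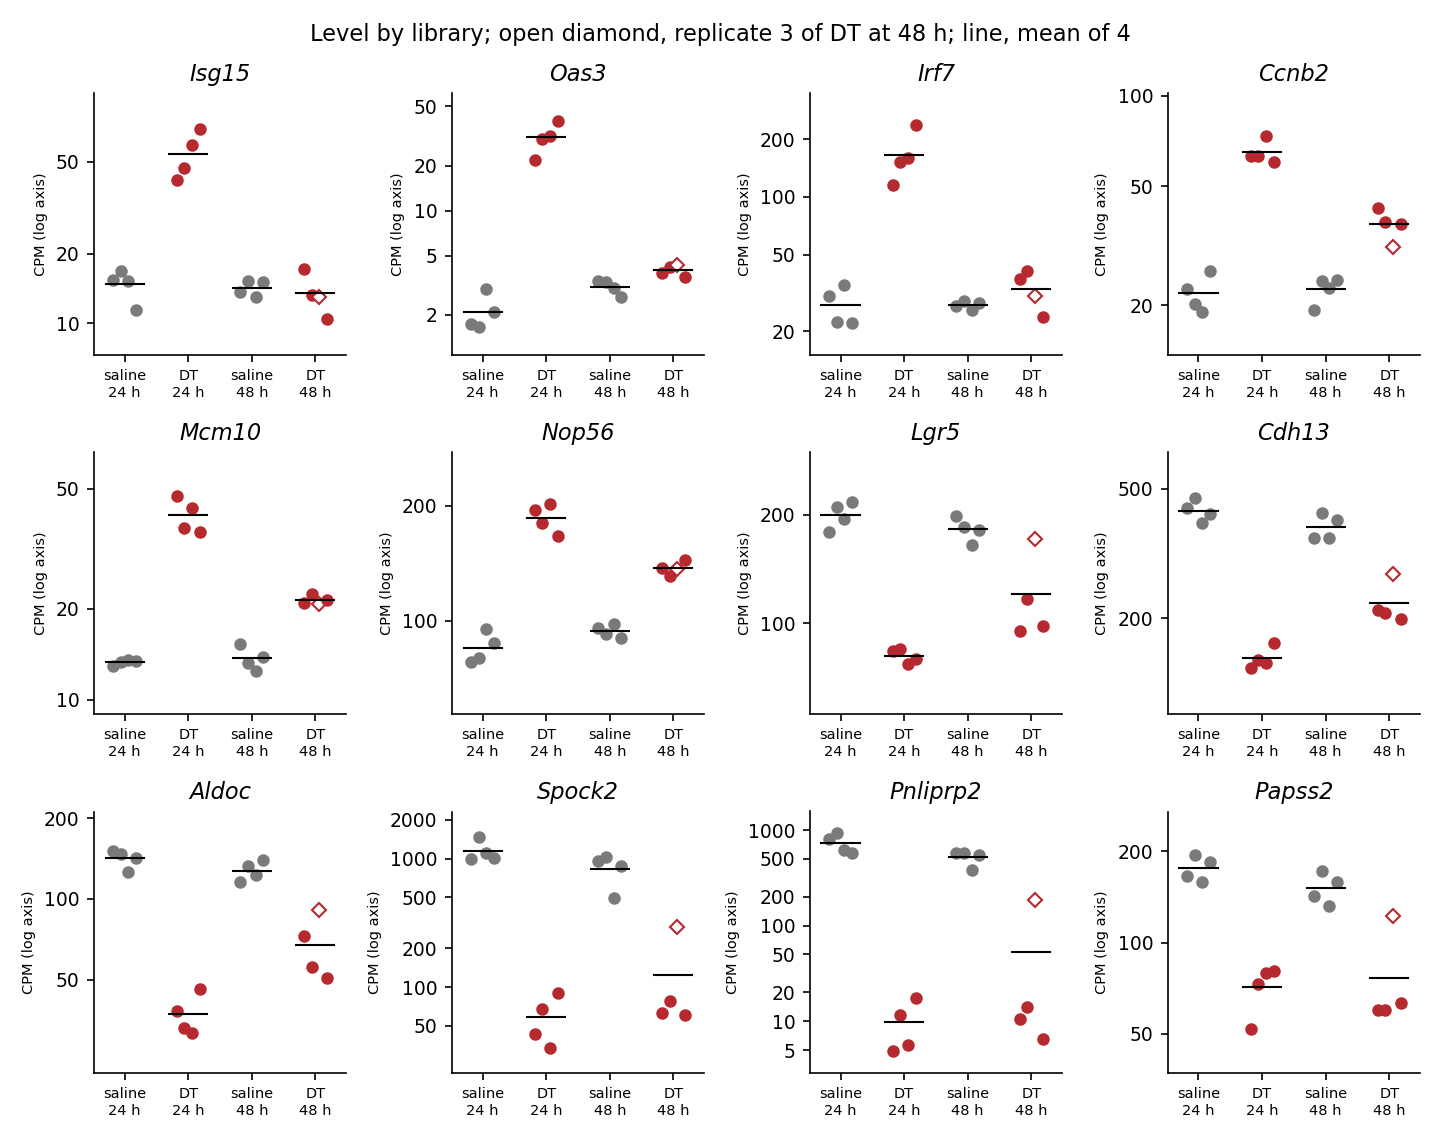
CPM on a log axis (y) in each of the 4 libraries of saline 24 h, DT 24 h, saline 48 h and DT 48 h (x) for 12 genes; lines are means of 4, and the open diamond is the library labelled DT 48 h replicate 3. Isg15, Oas3 and Irf7 are near saline at 48 h, Ccnb2, Mcm10 and Nop56 lie between saline and the DT level of 24 h, and the diamond lies above the other DT libraries for Lgr5, Cdh13, Aldoc, Spock2, Pnliprp2 and Papss2.

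The cell cycle lists are given next. Of all genes tested 19.9% were called higher at 24 h, 4.83% were at 48 h and 2.34% had a called lower change, the background for the cell cycle, growth and metabolism lists. All 25 G2/M genes were called higher after DT at 24 h and 23 at 48 h, and the change was called lower in 21 (16 without the library labelled DT 48 h replicate 3, 15 to 23 over all fits that left out 1 library). Their median went from 1.28 to 0.53 and the 48 h effects ran from 0.27 (Cenpf) to 0.72 (Ccnb2), all above 0. Of 30 S phase genes 29 were called higher at 24 h and 15 at 48 h, and 16 had a called lower change, with medians of 0.86 and 0.31. The S phase counts rested on single libraries. The 15 became 8 without saline 48 h replicate 1 or 2, 7 without saline 48 h replicate 4, 6 without DT 48 h replicate 1 or 4, and 22 without replicate 3. The 16 became 6 to 10 without any one of the saline 24 h replicates, saline 48 h replicate 4 or DT 48 h replicate 2, and 7 without replicate 3.

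Ccnb2 encodes a mitotic cyclin. It was at 22.6, 20.2, 19.0 and 25.9 CPM in saline and 63.0, 63.1, 73.3 and 60.1 after DT at 24 h. By 48 h saline stood at 19.3, 24.0, 22.8 and 24.2 CPM and DT at 42.3, 38.0, 31.3 and 37.4. DT libraries lay above saline at both times, and those of 48 h below all of 24 h. The effect was 1.57 ± 0.11 and then 0.72 ± 0.10, a change of -0.84 ± 0.15 (edgeR adjusted p = 0.00218). The kinase Cdk1 (1.29, then 0.49), the checkpoint kinase Bub1 (1.36, then 0.55) and the topoisomerase Top2a (1.25, then 0.40) took the same course, each called at both times and in the change.

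Mcm10, which helps load the replication fork, was at 12.9, 13.3, 13.5 and 13.4 CPM in saline and 47.5, 37.0, 43.1 and 35.9 after DT at 24 h. At 48 h it was at 15.3, 13.2, 12.5 and 13.8 CPM in saline and 20.8, 22.5, 20.8 and 21.4 after DT. Here the library labelled replicate 3 was at the level of the other DT libraries, and DT and saline did not overlap at either time. The effect went from 1.61 ± 0.08 to 0.64 ± 0.08, a change of -0.98 ± 0.12 (edgeR adjusted p = 3.45e-05), and of -0.93 without that library. Rrm2, a subunit of ribonucleotide reductase, went from 1.87 to 0.78; its change of -1.08 was not called without that library (edgeR adjusted p = 0.0544) or without saline 24 h replicate 2. Mcm3, a subunit of the replicative helicase, changed by -0.75 ± 0.15 (edgeR adjusted p = 0.00573), and its 48 h effect of 0.34 was not called without any one of saline 48 h replicates 1, 3 and 4 or DT 48 h replicates 1 and 4.

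Called changes were fewer in the lists of growth and metabolism. All 28 ribosome biogenesis genes were called higher at 24 h and 17 at 48 h, with medians of 0.54 and 0.27, and 7 had a called change. That 7 became 3 or 4 without saline 24 h replicate 2, 3 or 4, saline 48 h replicate 4 or DT 48 h replicate 2 or 3, and 13 without DT 24 h replicate 4. Nop56, a core protein of box C/D particles that modify ribosomal RNA, was at 77.7, 79.6, 94.9 and 87.6 CPM in saline and 195, 180, 203 and 167 after DT at 24 h. The saline libraries of 48 h had 95.7, 92.1, 97.7 and 90.3 CPM and the DT libraries 137, 131, 137 and 144. All DT libraries lay above all saline libraries, with the 48 h ones in between, and the change was -0.58 ± 0.09 (edgeR adjusted p = 0.00113). Of 13 genes of serine, glycine and one-carbon metabolism 10 were called higher at 24 h, 3 at 48 h (8 without the library labelled DT 48 h replicate 3, 1 without saline 48 h replicate 1 or DT 48 h replicate 4), and 5 had a called lower change, a count that was 2 without that library and 2 to 6 over the 16 fits. Psat1, an enzyme of serine synthesis, went from 1.23 to 0.54 (change -0.69 ± 0.14, edgeR adjusted p = 0.00513). Of 23 respiratory chain subunits 17 were called higher at 24 h and 1 (against 2.34% of all genes) had a called lower change, near the share of all genes, and the 6 called at 48 h became 17 without the library labelled replicate 3 and 1 to 3 without saline 48 h replicate 1 or 2 or DT 48 h replicate 1 or 4.

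**Figure D4:**
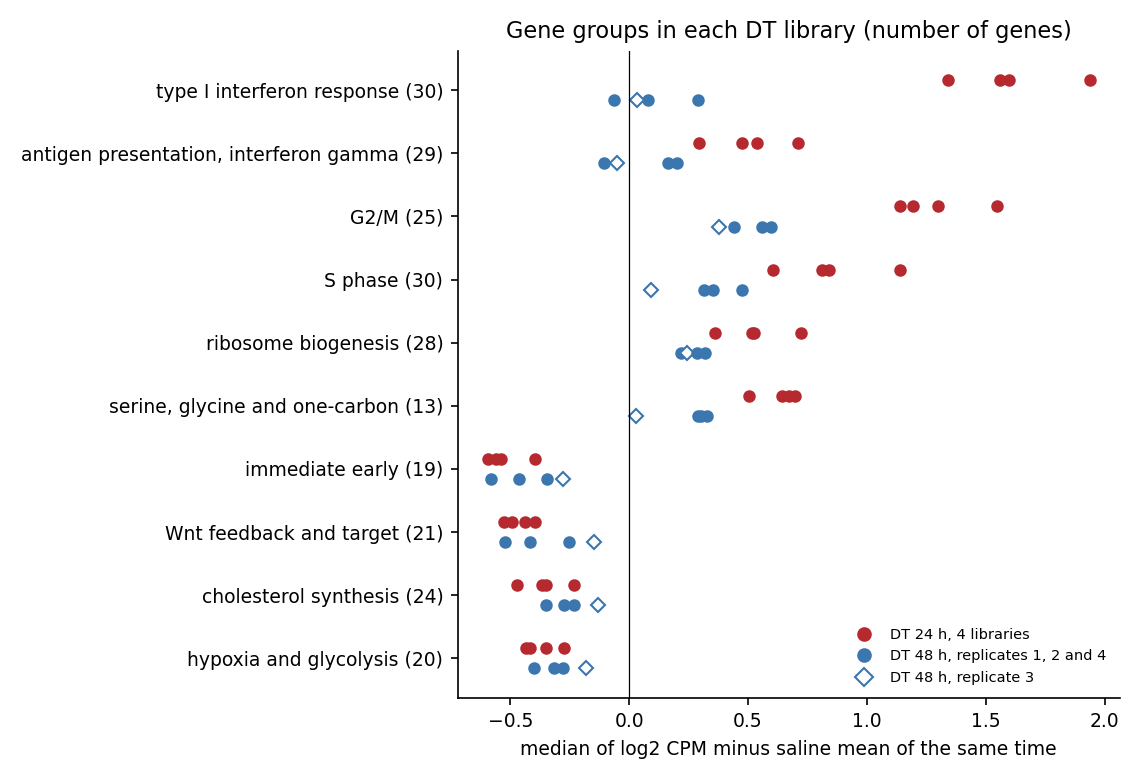
Median over the genes of each group (y axis, number of genes in parentheses) of log2 CPM minus the saline mean of the same time (x axis), 1 point per DT library; red, 24 h; blue, 48 h; open diamond, the library labelled DT 48 h replicate 3. The interferon group lies at 1.34 to 1.94 at 24 h and about 0 at 48 h, G2/M at 0.38 to 0.60 at 48 h, and the 4 lowered groups at the bottom overlap between the times.

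Immediate early, Wnt feedback, cholesterol synthesis and hypoxia genes, mostly lowered by DT, had no called change by edgeR. Of 19 immediate early genes, transcription factors and regulators that respond within minutes to growth signals, 18 were called lower at 24 h, against 18.9% of all genes tested, and 16 at 48 h, against 6.50%; the 16 became 10 without saline 48 h replicate 1 and 9 without DT 48 h replicate 4. Their median effect was -0.50 at 24 h, -0.41 at 48 h and -0.50 at 48 h without the library labelled replicate 3. By edgeR, DESeq2 and limma voom 0 of the 19 had a called change, with 2 at an unadjusted edgeR p under 0.05. For 11 the 95% interval of the change lay within -0.5 and 0.5. These bounds are about as wide as the median 24 h effect, so this count does not show that the effects were kept. Their level in saline was itself higher at 48 h than at 24 h, with a summed 14395 to 15175 CPM against 9776 to 12366.

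Fos, a subunit of AP-1, was at 1426, 1246, 1464 and 1260 CPM in saline and 848, 780, 970 and 929.5 after DT at 24 h. The 48 h values were 2163, 2374, 2149.9 and 2308 CPM in saline and 1839, 1787, 1898 and 1559 after DT. DT lay below saline without overlap at both times, although every library of 48 h was above every library of 24 h. The effect was -0.61 ± 0.07 and then -0.34 ± 0.07, and the change of 0.27 ± 0.11 was not called (edgeR adjusted p = 0.196). Atf3, a stress-induced factor of the same family, went from -0.87 ± 0.10 to -0.57 ± 0.09.

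Of 21 Wnt feedback and target genes 13 were called lower at 24 h (18.9% of all genes) and 10 at 48 h (6.50%), 13 of them without the library labelled DT 48 h replicate 3 and 6 without DT 48 h replicate 2. A called change was found in 0 by edgeR (2 at an unadjusted p under 0.05), 2 by DESeq2 and 1 by limma voom. Notum, an enzyme that inactivates Wnt ligands, was at 769, 882, 820 and 755 CPM in saline and 302, 293, 299 and 428 after DT at 24 h. By 48 h saline stood at 728, 758, 622 and 745 CPM and DT at 447, 393, 501 and 395. The DT libraries lay below saline at both times, with DT 24 h replicate 4 above the other 3 of its group. Its change of 0.57 ± 0.17 missed the threshold (edgeR adjusted p = 0.0669) and passed it without DT 24 h replicate 4 or DT 48 h replicate 2. Nkd1, an inhibitor of Dishevelled, had effects of -1.13 and -0.65 and passed it without either of the same libraries (0.0129 to 0.153 over the 16 fits). Wif1, which binds Wnt ligands, had effects of -1.78 ± 0.26 and -1.21 ± 0.25. Myc was called higher at both times, at 0.51 and 0.51.

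Of 24 cholesterol synthesis genes 18 were called lower at 24 h and 12 at 48 h, against the same 18.9% and 6.50%, with medians of -0.38 and -0.24. A called change was found in 0 by edgeR (5 at an unadjusted p under 0.05), 1 by DESeq2 and 2 by limma voom. For 18 the interval of the change lay within -0.5 and 0.5. These bounds are wider than the median 24 h effect, so this count does not show that the effects were kept. Insig1, the sterol sensor that holds SREBP in the endoplasmic reticulum, had effects of -0.92 ± 0.08 and -0.58 ± 0.08. Of 20 hypoxia and glycolysis genes 13 were called lower at 24 h and 9 at 48 h, against 18.9% and 6.50% of all genes (5 without saline 48 h replicate 3 or 4 or DT 48 h replicate 4), and 0 had a called change by any of the 3 tools, with 3 at an unadjusted edgeR p under 0.05. Vegfa, an angiogenic factor, had effects of -1.09 ± 0.12 and -0.66 ± 0.12, and a change of 0.43 with a 95% interval of 0.07 to 0.78.

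Some lowered genes rose part of the way back. Cdh13, a cadherin without a transmembrane part, was at 436, 469, 393 and 418 CPM in saline and 140.4, 149, 146 and 168 after DT at 24 h. At 48 h it was at 355, 422, 353 and 401 CPM in saline and 212, 208, 273 and 199 after DT. The 48 h DT libraries lay between the DT libraries of 24 h and saline, with the library labelled replicate 3 the highest. The effect was -1.51 ± 0.09 and then -0.78 ± 0.09, a change of 0.73 ± 0.12 (edgeR adjusted p = 0.00168), and of 0.65 without that library.

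Aldoc, a glycolytic aldolase, was at 151, 147, 126 and 142 CPM in saline and 38.0, 33.0, 31.6 and 46.0 after DT at 24 h. The saline libraries of 48 h had 115, 133, 123 and 139 CPM and the DT libraries 72.6, 55.8, 91.1 and 50.7. The groups did not overlap at either time. The change was 1.02 ± 0.19 (edgeR adjusted p = 0.00448) and 0.87 without the library labelled replicate 3. The secreted protein Mia (-1.29, then -0.36) and the cell cycle inhibitor Cdkn1c (-1.24, then -0.56) also had a called change, with and without that library. Fstl4, a secreted follistatin relative that has been listed with crypt stem cell genes, had effects of -2.20 ± 0.29 and -1.02 ± 0.27 and a change that was not called (edgeR adjusted p = 0.121).

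For Pnliprp2 and Spock2, both strongly lowered at 24 h, the 48 h value turned on 1 library. Pnliprp2, a pancreatic lipase-related enzyme, was at 816, 927, 617 and 576 CPM in saline and 4.88, 11.7, 5.69 and 17.4 after DT at 24 h. The 48 h values were 579.8, 578, 384 and 547 CPM in saline and 10.6, 14.1, 184 and 6.46 after DT. The 3 other DT libraries of 48 h lay within the DT range of 24 h, and the library labelled replicate 3 lay above them all and below saline. The 48 h effect was -3.29 ± 0.79 with it and -5.70 without it, against -6.18 ± 0.92 at 24 h, and the change 2.89 ± 1.09 with it (edgeR adjusted p = 0.181) and 0.50 without it (0.845). Spock2, a proteoglycan of the extracellular matrix, was at 1000.5, 1479, 1096 and 1005 CPM in saline and 42.8, 67.7, 33.9 and 90.4 after DT at 24 h. By 48 h saline stood at 951, 1024, 491 and 868 CPM and DT at 63.3, 77.4, 294 and 60.2. Its effects were -4.28 at 24 h and -2.75 at 48 h, -3.63 without that library.

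With all libraries 1 lowered gene met the bounds for a kept response, Chil3, a chitinase-like protein, with effects of -1.82 and -1.81 at means under 2 CPM in every group; its 24 h call was lost in 6 of the 16 fits that left out 1 library and its 48 h call in 4. Of the 16 kept without the library labelled DT 48 h replicate 3, 15 were also tested with all libraries. The remaining gene had not passed the filter on low counts there. Papss2, which makes the sulfate donor for mucins and proteoglycans, was at 165, 195, 158 and 184 CPM in saline and 51.8, 73.2, 79.6 and 80.5 after DT at 24 h. At 48 h it was at 143, 172, 132 and 159 CPM in saline and 60.0, 59.9, 123 and 63.0 after DT. The 3 other DT libraries lay within the DT range of 24 h and the library labelled replicate 3 just below saline. The effects were -1.29 at 24 h and -0.99 at 48 h, -1.29 without it, and the change 0.31 (95% interval -0.24 to 0.85) with it and 0.02 without it.

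Mdga2, an adhesion protein of the immunoglobulin family, was at 67.5, 84.0, 72.9 and 80.6 CPM in saline and 24.4, 29.2, 24.1 and 25.0 after DT at 24 h. The saline libraries of 48 h had 73.4, 70.2, 54.6 and 73.7 CPM and the DT libraries 17.7, 23.8, 45.0 and 28.3. DT stayed below saline in every library, with the library labelled replicate 3 nearest to it. The change was 0.32 with it and 0.06 without it. The membrane mucin Muc4 (-1.02, then -0.92), the organic cation transporter Slc22a3 (-1.22, then -1.02), the liver-type secreted protein Fetub (-1.46, then -1.15), the ferroxidase Cp (-1.03, then -0.67), the oxidase of the secretory pathway Ero1a (-1.32, then -0.98) and the amyloid precursor relative Aplp2 (-1.01, then -0.60) met the same bounds without that library, when their 48 h effects were -1.03, -1.19, -1.40, -0.96, -1.30 and -0.76. Ceacam10, a secreted member of the carcinoembryonic antigen family, had effects of -1.79 ± 0.30 and -1.64 ± 0.30, but the interval of its change, -0.72 to 1.03, was too wide to call it kept.

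Few genes responded later or changed sign. Cd36, a fatty acid transporter, was at 11.1, 8.77, 6.21 and 2.85 CPM in saline and 3.34, 4.50, 5.03 and 4.60 after DT at 24 h. The 48 h values were 3.60, 5.15, 5.57 and 4.29 CPM in saline and 12.9, 10.2, 5.97 and 8.89 after DT. DT lay above saline only at 48 h. The change was 1.74 ± 0.46 (edgeR adjusted p = 0.0416), a call lost in 12 of the 16 fits that left out 1 library and kept only without saline 24 h replicate 3 or 4, DT 24 h replicate 4 or DT 48 h replicate 3.

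Gbp9, a guanylate-binding protein near-identical in sequence to others of its cluster on chromosome 5, so that reads may be split among them, was at 17.9, 23.02, 21.2 and 19.6 CPM in saline and 19.5, 24.4, 19.8 and 26.2 after DT at 24 h. By 48 h saline stood at 21.9, 22.4, 18.5 and 20.9 CPM and DT at 8.89, 10.6, 17.6 and 11.6. The groups overlapped at 24 h, and at 48 h DT was below saline in every library. The change was -0.93 ± 0.21 (edgeR adjusted p = 0.0130), and -1.12 without the library labelled replicate 3. Its neighbour Gbp6 had effects of 0.56 (not called without saline 24 h replicate 3 or 4 or DT 24 h replicate 2 or 4) and -0.95 and a change of -1.52 ± 0.28, and Gbp4 of -0.44 and -1.27 with a change of -0.82 not called by edgeR (adjusted p = 0.178), and called without that library (-1.16, edgeR adjusted p = 0.0174) and by limma voom. Gbp3, on chromosome 3, took the course of the interferon genes instead (1.98, then 0.11).

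Both effects were called with opposite signs in 6 genes, 5 of them higher first. Phf11d, an interferon-inducible gene, went from 0.60 ± 0.15 to -0.57 ± 0.16, the latter not called without saline 48 h replicate 2 or 4 or DT 48 h replicate 4. The 1 gene lower first was Lemd1, which went from -0.35 ± 0.12 to 0.57 ± 0.12, the former not called without saline 24 h replicate 2 or DT 24 h replicate 2, 3 or 4. The heat shock genes show a change of the control level. Of 13, 10 were called lower in saline at 48 h than at 24 h, against 0.177% of all genes tested. In the DT libraries 10 were likewise called lower at 48 h, against 11.7%. Hspa1b, an inducible chaperone, was at 595, 535, 619 and 461 CPM in saline and 482, 486, 478 and 457 after DT at 24 h. At 48 h it was at 97.6, 80.6, 84.1 and 73.0 CPM in saline and 113, 161, 106 and 89.2 after DT. The groups overlapped at both times, and the change of 0.70 ± 0.19 (edgeR adjusted p = 0.0455) was not called in 11 of the 16 fits that left out 1 library. Cryab, a small heat shock protein, changed by 0.67 ± 0.16 while its saline mean went from 36.3 to 15.2 CPM, and was not called without DT 24 h replicate 2 or saline 48 h replicate 1 or 2. Time and handling of the 2 sets of libraries cannot be told apart in these groups.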

How the data were processed

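Cells were sorted by FACS and their polyA RNA, prepared with the RNeasy Micro kit, was sequenced, per the labels' protocols. Each library has its own deposited file of 36528 genes, in which a count is, per the file headers, how many reads aligned uniquely to that gene model; counts were used unchanged. The deposited nRPKM, an RPKM adjusted by a size factor, served only to recover the authors' size factors (relative deviation up to 7.1e-15 over 11928 genes). GSNAP and GRCm38 are named in the submitters' processing notes. Sources used here give no annotation, strand or counting option, so overlapping genes cannot be separated. Symbols came from RefSeq on GRCm38.p6 for 31049 identifiers (85.0%); the rest held 1.29% to 1.52% of counts and stayed in the tests.

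Counts of all 24 libraries were fitted with edgeR 4.0.16 (R 4.3.3; quasi-likelihood, robust, TMM, filterByExpr by group, 18 residual degrees of freedom, two-sided, Benjamini-Hochberg over 17468 genes). SE is the log2 change over the square root of F, and 95% intervals use the t distribution. CPM use TMM library sizes. Slopes used log2 CPM with a prior count of 2. The test was tried on simulated counts of 17280 genes: for this difference 40% of changes of 1.5-fold were found and 72% of those of 2-fold, and 5 of 117 calls were false. In these counts 200 genes were changed, 0 were called at 24 h and no library was made to deviate. The rates may therefore differ in the real libraries. Replicates differed beyond sampling noise (chi-square per degree of freedom at least 4.24). Deviations of same-numbered saline and DT libraries had correlations of -0.42 to 0.15, and those of other pairs -0.23 to 0.30. The numbers thus showed no sign of pairing, which so few libraries cannot exclude. The comparison, gene lists, classes and tests were chosen with earlier results of these data known. The naming rule took Lgr5, the 12 largest changes in each direction and the 12 smallest p, the 10 largest 24 h effects of each class and direction, and from each of 48 lists up to 4 members by p and up to 2 kept ones by 24 h effect. Mx1, Usp18, Igtp, Irgm1, Ifih1, Ddx60, Ifit1, B2m, Ptprc, Cdk1, Bub1, Cenpf, Rrm2, Esco2, Cdkn1c, Papss2, Mdga2, Fetub, Muc4, Slc22a3, Cp, Aplp2, Ero1a, Chil3, Spock2, Ceacam10, Wif1, Myc, Gbp4, Gbp6, Gbp9, Phf11d and Cryab were chosen after their values were seen. Apart from these, 1 further gene is not reported here. Alternatives were 3 other scalings, 2 filters, DESeq2 1.42.0, limma 3.58.1 voom with quality weights, dispersion not robust, only the 16 libraries, replicate blocks, class bounds of 0.3 and 1, no 2-fold minimum, and each library left out.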

Additional observations from a re-analysis of the deposited data

Results flagged for a closer look

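In groups of 4 libraries, 1 library lay far from the other 3 in 5 of 74 groups examined over 18 genes and the 48 h slopes. Chance gives this in about 1 group in 20 where genes are chosen without regard to their values. Papss2 and Spock2 were chosen after their values were seen, so 5 of 74 cannot be set against that rate. The library labelled DT 48 h replicate 3 was the high one for Papss2 (122.73 CPM, others 59.9 to 63.0), Spock2 (294.42 CPM, others 60.2 to 77.4) and Pnliprp2 (183.63 CPM, others 6.46 to 14.1). Saline 48 h replicate 3 was low for Pnliprp2, at 384.29 CPM against 547 to 579.8 in the others. DT 24 h replicate 4 was high for Notum, at 428.34 CPM against 293 to 302. The DT effect differed between 24 and 48 h in the test of the change itself, lower at 48 h in 408 genes and higher in 97.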

How the results depend on the processing

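Over the fits that left out 1 library, genes with a lower DT effect at 48 h than at 24 h numbered 212 to 644 and genes with a higher one 45 to 221; genes with a DT effect numbered 5961 to 7420 at 24 h and 1154 to 2741 at 48 h, and genes that differed between the saline groups 38 to 87. Shut-off genes numbered 15 to 48, shrunken ones 117 to 221, kept ones 0 to 16 and late ones 0 to 4, and the change for Lgr5 was 0.51 to 0.79. Higher changes numbered 45 with no filter, 43 with only the 16 libraries, 264 by limma voom and 204 by DESeq2. By limma voom 659 changes were lower, 3975 genes had a DT effect at 48 h and 311 differed between the saline groups (156 by DESeq2). Bounds of 0.3 gave 2 shut-off and 0 kept genes; bounds of 1 gave 179, 30 shrunken and 132 kept. With no 2-fold minimum there were 280 shut-off, 3000 kept and 11 late genes. Kept genes numbered 3 by limma voom and 0 by DESeq2, and late ones 7 by limma voom. For Lgr5 the change was 0.69 and not called with only the 16 libraries. No result changed sign among those with a called value, and the other scalings moved none of these counts by over 1.5 times. Called lower changes among 28 ribosome biogenesis genes numbered 11 with upper quartile scaling or a 1 CPM filter and 12 by DESeq2 or limma voom; with only the 16 libraries they numbered 10 in S phase and 2 in serine and one-carbon genes, where 3 were called with no filter. The cause of these differences was not tested.

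Replicate numbers showed no sign of pairing the libraries, and pairing was not excluded. With the replicate block over all times 73 changes were higher and 338 lower, 1 gene was late, and the change for Lgr5 was 0.69 (edgeR adjusted p = 0.0506). With the replicate block within time 27 changes were higher and 145 lower, 933 genes had a DT effect at 48 h, 4 differed between the saline groups, 74 shrank, 0 were kept and 0 were late, and the change for Lgr5 was 0.66 and not called. Called lower changes fell to 8 of 25 G2/M genes, 5 of 30 S phase genes, 3 of 28 ribosome biogenesis genes and 1 of 13 serine and one-carbon genes under that block, and were 26 of 30 interferon genes. In simulated counts without a 24 h response 40% of 1.5-fold changes were recovered, so many changes of that size may be missed in the real libraries.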
